A study of Homo sapiens with 27 samples.

Results

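miR-584-5p is the mature miRNA cut from the 5' arm of the MIR584 hairpin, and is 1 of the 2276 miRNAs listed in any of the 9 count tables of this study. It was chosen because its count was raised in K562 cells lacking USB1, so its values in that comparison are a description and carry no test. All 9 tables listed it, and its level was read in all 27 libraries. USB1 is a nuclease that trims the 3' ends of small RNAs, best known for maturing U6 snRNA. PAPD5 is a non-canonical poly(A) polymerase that adds adenosines to the 3' ends of non-coding RNAs, including miRNAs, and PARN is a deadenylase that removes them. An adenosine tail can mark a miRNA for decay by 3' to 5' exonucleases, so loss of a tail-removing enzyme can be read out as a change in miRNA level.

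Small RNA was sequenced in 12 libraries of K562, an established human leukaemia line, and in 15 of the established human embryonic stem cell (hESC) line H1, with 3 libraries in each of 9 groups. The 4 K562 groups were control cells, USB1 knockout (KO) cells made with CRISPR/Cas9 and grown from single cells, and each of these with a short hairpin RNA against PARN (control shPARN and KO shPARN). The hESC material made up 5 groups, namely wild type (WT), a mutant carrying a USB1 loss-of-function change found in poikiloderma with neutropenia, the mutant with a doxycycline-inducible wild-type USB1 transgene (iUSB1) without (-Dox) and with (+Dox) doxycycline, and the mutant with an integrated short hairpin RNA against PAPD5 (shPAPD5). Apart from WT, all hESC groups carried the USB1 mutation, and no group was labelled as carrying a hairpin without a target. How many clones stand behind a K562 group is not given in the sources used here, clone and genotype cannot be told apart, and the RNAs of USB1, PARN and PAPD5 are not measured by this assay. The study calls its miRNA-seq replicates biological, but nothing in the labels ties the libraries to separate cultures or clones, so a p-value here measures library-to-library spread, which may be partly technical.

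K562 libraries held 1530929 to 13183152 counts and hESC libraries 12258450 to 35734485. KO library 3 was the shallowest, and also had the highest scaling factor (1.35, against 0.863 to 1.12 in the other K562 libraries) and the highest share of adaptor rows (0.206%). The closest pair within a K562 group, KO libraries 1 and 2, still differed beyond sampling noise (chi-squared of their counts over its degrees of freedom, 13.2). That pair was far more alike than the other pairs within K562 groups, which gave 147 to 727. Why these libraries were so alike was not tested. A sum of 7 blood miRNAs such as miR-486-5p, miR-451a and miR-223-3p ran from 6610 to 11600 CPM (counts scaled to a library size of 1000000) in K562 and from 93.7 to 341 in hESCs. In every library miR-486-5p was its largest member, at 51.9% to 67.6% of the sum in K562 and 77.2% to 96.9% in hESCs. A set of 8 pluripotency miRNAs such as miR-302b-3p summed to 179000 to 398000 CPM in hESCs. In K562 the same 8 summed to 0.653 to 19.2 CPM in 10 libraries, but to 782 and 829 CPM in control libraries 1 and 2. Whether hESC material reached those libraries was not tested, and miR-584-5p in control library 3, where the sum was 8.71 CPM, lay between its levels in the other two. With both of those libraries left out, a choice made after seeing the data, the KO against control log2 difference described below was 3.0 (SE 0.74), and the fit takes the lone control library to vary like the other groups.

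The mature sequences of both arms and of the hairpin are shown because they fix which molecule was counted. They were taken from the RefSeq table for GRCh38.p14, with the seed (bases 2 to 8) of each arm in capitals, and with both arms in capitals in the hairpin.
hsa-miR-584-5p: uUAUGGUUugccugggacugag
hsa-miR-584-3p: uCAGUUCCaggccaaccaggcu
MIR584 hairpin: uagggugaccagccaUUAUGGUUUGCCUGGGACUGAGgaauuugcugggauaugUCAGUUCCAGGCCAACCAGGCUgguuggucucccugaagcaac

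The hairpin lies on the minus strand at chr5:149062313-149062409 in GRCh38.p14, and the 5p arm at chr5:149062373-149062394. The position is in intron 1 of SH3TC2, a gene on the same strand with 17 exons in its canonical transcript, 561 bases from the upstream exon. The 22 bases of the mature sequence matched the genome exactly at 1 place, and 0 other mature miRNAs of the table shared its bases 2 to 8 or 2 to 7. The longest run it shared with another mature miRNA was 10 bases, with miR-3176 and with miR-4784. The counts are therefore those of a miRNA with no near-identical copy in the table. Its last base is G, as in 29.9% of the 777 miRNAs tested in K562 that had a sequence, while 20.2% of them end in A. The hairpin goes on with gaa after the mature end, so an untemplated A would differ from the next genomic base. The count tables give no tails.

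miR-584-5p was low in K562 control cells and high in the USB1 KO. The control libraries held 101, 84 and 115 counts, or 9.28, 11.9 and 10.98 CPM after scaling each library by the trimmed mean of M values (TMM). The KO libraries held 767, 904 and 203 counts, or 80.2, 89.0 and 98.5 TMM-scaled CPM. The groups did not overlap, and the lowest KO library was 6.71 times the highest control library. Of the 881 miRNAs tested in K562, 13.7% had all KO libraries above all control libraries by any margin. The quasi-likelihood test of edgeR called 5.11% of the 881 in either direction. The mean rose from 10.7 ± 1.35 to 89.2 ± 9.17 TMM-scaled CPM (SD, n = 3 each), a fitted log2 difference of 3.05 with an SE of 0.41 (95% confidence interval 2.16 to 3.94), or 8.30-fold. Ranked by level among the 881 miRNAs, it stood at 390 to 416 in the control libraries and at 192 to 205 in the KO libraries.

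The difference did not rest on the shallow library. Leaving out each of the 6 libraries in turn gave log2 differences of 2.96 to 3.13. KO library 3 was the highest of the 3 at 98.5 TMM-scaled CPM, and its share of the library total was 133 CPM with an exact 95% binomial interval of 115 to 152, which covers counting error only. Blood marker sums overlapped between the control (9090 to 11600 CPM) and KO libraries (8690 to 11100 CPM). Sums of 7 fibroblast markers, such as miR-21-5p and miR-199a-3p, also overlapped, at 128000 to 157000 and 130000 to 139000 CPM, almost all of it miR-21-5p. Without miR-21-5p they were 1220 to 1670 CPM in control, 1010 and 1340 in KO libraries 1 and 2, and 5960 in KO library 3, which also had the highest miR-584-5p of the group. The part of these markers in the level of miR-584-5p was not tested.

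**Figure D1:**
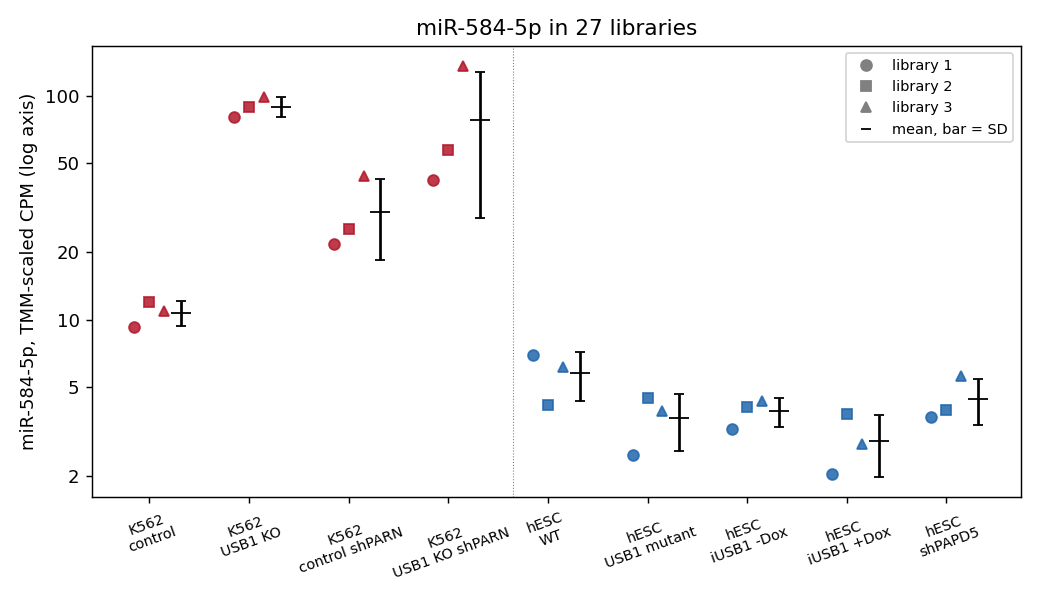
Level of miR-584-5p in each of the 27 libraries, as TMM-scaled CPM on a log axis, with K562 groups in red and hESC groups in blue. Marker shapes give the library number and the black bars the group mean with its SD. The 3 USB1 KO libraries sit between 80.2 and 98.5, above the 3 control libraries at 9.28 to 11.9, and the highest hESC library lies at 6.94, on a scale set separately for each line.

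Among all 881 tested miRNAs the log2 difference of miR-584-5p ranked 2 in the KO against control comparison. The first, miR-3195, was a low-count miRNA with means of 2.44 and 38.7 TMM-scaled CPM and an SE of 1.66 on its log2 difference of 3.93. The third, miR-3689a-5p, had a log2 difference of 2.81 with an SE of 0.34 and means of 2.09 and 14.6. Of the tested miRNAs, 421 had a mean log2 CPM of 3 or more over the K562 libraries, and among them miR-584-5p had the largest rise. A miRNA absent from any K562 table was not ranked.

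The 5 largest rises of that set also included miR-9-3p, miR-1257, miR-7704 and miR-9901. miR-9-3p, from a family best known in neural tissue, went from a mean of 16.2 to 86.7 TMM-scaled CPM, a log2 difference of 2.43 with an SE of 0.26. miR-1257 went from 24.0 to 106, a log2 difference of 2.14 with an SE of 0.31. Each library of the KO lay well above the controls for both: miR-9-3p was at 10.9 to 19.2 in the controls and at 66.5 to 101 in the KO, and miR-1257 at 22.7 to 26.2 and at 88.8 to 133. The other pair leaned on 1 library. The mean of miR-7704 went from 217 to 1516 TMM-scaled CPM through 1 library. It stood at 174, 168 and 4205 in the KO libraries and at 176 to 277 in the controls, and the SE on its log2 difference of 2.80 was 1.61. miR-9901 stood at 34.9, 29.1 and 164 in the KO libraries and at 26.8, 9.10 and 12.6 in the controls, so its groups did not overlap either, with a log2 difference of 2.2 and an SE of 1.1. The sequences of miR-9-3p and miR-1257 are shown with the seed in capitals to set them beside that of miR-584-5p, with which they share no seed.
hsa-miR-9-3p: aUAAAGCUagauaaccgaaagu
hsa-miR-1257: aGUGAAUGauggguucugacc

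PARN knockdown libraries gave a comparison of USB1 KO with control that shares no library with the contrast named in the choice of miR-584-5p. Earlier results of all the libraries were known when the miRNA was chosen, so the p-value below is not that of an independent test. The control shPARN libraries held 257, 250 and 392 counts, or 21.8, 25.5 and 43.9 TMM-scaled CPM. The KO shPARN libraries held 365, 471 and 1050 counts, or 42.1, 57.5 and 135. The highest control shPARN library lay above the lowest KO shPARN library, so the groups overlapped, and KO shPARN library 3 stood well above the other KO shPARN libraries. The mean was 30.4 ± 11.9 in control shPARN and 78.3 ± 49.9 TMM-scaled CPM in KO shPARN (SD, n = 3 each). miR-584-5p rose by a log2 difference of 1.36 with an SE of 0.38 (95% confidence interval 0.53 to 2.19), or 2.58-fold, at an adjusted p of 0.0434 (edgeR quasi-likelihood test, Benjamini-Hochberg over 881 miRNAs). In this comparison the test called 9.19% of all miRNAs, 4.99% of them higher, and the rise of miR-584-5p ranked 55.

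The call stood close to its threshold. Between libraries with the same number the KO shPARN level was 1.93, 2.25 and 3.08 times the control shPARN level, higher in 3 of 3 pairs. With the replicate number as a block the log2 difference was 1.26 (SE 0.24) at an edgeR adjusted p of 0.0115. This pairing comes from the data, not from the labels, so the block is no separate support for the call. Without KO shPARN library 3 the log2 difference fell to 0.68 with an edgeR adjusted p of 0.130. The call was also lost without control shPARN library 1 (1.15, adjusted p = 0.162), without control shPARN library 2 (1.21, adjusted p = 0.192) and without KO shPARN library 2 (1.54, adjusted p = 0.0509), all by edgeR. KO shPARN library 3 had 10700 CPM of the 7 blood miRNAs, against 6610 and 7330 in KO shPARN libraries 1 and 2. It had 449 CPM of the fibroblast markers other than miR-21-5p, the lowest of its group, against 12700 and 1250. The part of these markers in the level of miR-584-5p was not tested.

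Of the other 4 largest rises in the KO without shPARN, miR-9-3p and miR-1257 also rose under shPARN. miR-9-3p rose by a log2 difference of 1.5 (SE 0.25, edgeR adjusted p = 0.00307), from means of 18.6 to 52.5 TMM-scaled CPM. miR-1257 rose by 1.61 (SE 0.30, edgeR adjusted p = 0.00589), from 38.1 to 116. miR-7704 and miR-9901 did not pass the test, with log2 differences of -1.31 for the first (edgeR adjusted p = 0.633) and -0.26 for the second (edgeR adjusted p = 0.907).

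**Figure D2:**
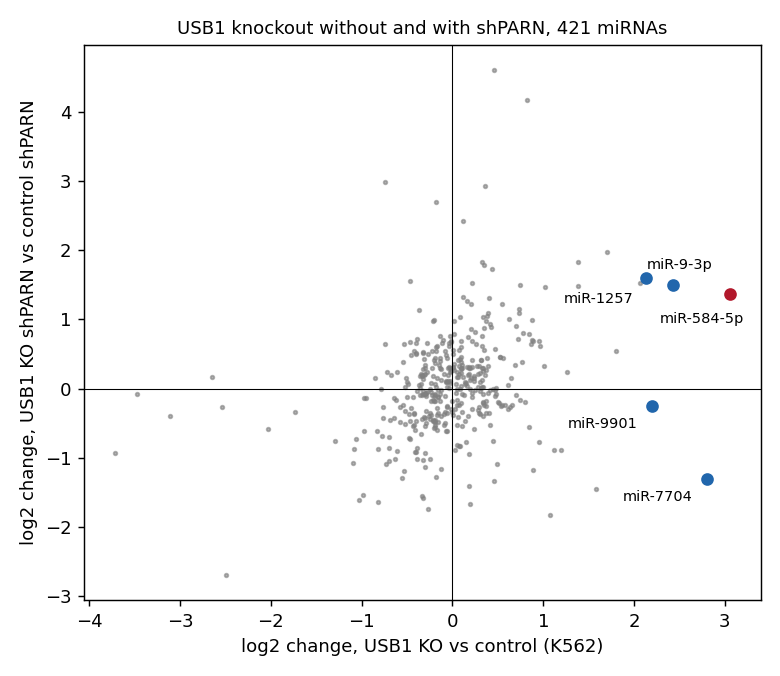
Log2 difference between USB1 KO and control for 421 K562 miRNAs, without shPARN on the horizontal axis and with shPARN on the vertical axis, each point 1 miRNA and the 5 largest rises without shPARN named. miR-584-5p (red) lies at 3.05 and 1.36, with miR-9-3p and miR-1257 near it, while miR-7704 and miR-9901 lie below 0 on the vertical axis.

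The remaining K562 contrasts share libraries with the one that chose the miRNA, so they are given as values. The level was higher with shPARN in control cells, where the mean went from 10.7 to 30.4 TMM-scaled CPM, a log2 difference of 1.5 with an SE of 0.39 (95% confidence interval 0.65 to 2.35). These groups did not overlap, the lowest control shPARN library being 1.82 times the highest control library, and 11.1% of all miRNAs were separated in that direction. edgeR called 1.48% of all miRNAs in that contrast. In KO cells the level with shPARN differed from that without by a log2 difference of -0.19 with an SE of 0.38 (95% confidence interval -1.0 to 0.63), and the libraries overlapped, in a contrast where edgeR called 14.8% of all miRNAs. The sign of that last value turned to 0.067 without KO shPARN library 1, and it was -0.87 without KO shPARN library 3.

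The fitted KO effect was smaller on the log2 scale with shPARN than without. The difference was -1.69 with an SE of 0.54 (95% confidence interval -2.86 to -0.52). It holds the contrast that chose the miRNA, and choosing by a large value there favours a gap of this sign. It is a description, and its interval is no test. The difference was -2.39 without KO shPARN library 3, and edgeR called 1.82% of all miRNAs for it. The lowest KO library was 1.83 times the highest control shPARN library. By the share of the library total, the group means ran from 102 CPM in KO to 75.6 in KO shPARN, 27.3 in control shPARN and 11.5 in control. Neighbours in that order overlapped except control shPARN and control.

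miR-584-5p was lower in hESCs than in any K562 group, though it ranked in the middle of the measured miRNAs, at 445 to 639 of 998. By the share of the library total, which needs no scaling within a line, the highest hESC group mean was 5.73 CPM in WT (4.11 to 7.37) and the lowest K562 group mean 11.5 CPM in control (10.2 to 13.4). WT held 128, 66 and 84 counts, or 6.94, 4.18 and 6.12 TMM-scaled CPM, and the USB1 mutant 38, 149 and 52 counts, or 2.49, 4.48 and 3.90. Mutant library 2 lay above WT library 2, so the groups overlapped. The mean was 5.75 ± 1.42 in WT and 3.62 ± 1.03 in the mutant (SD, n = 3 each), a log2 difference of -0.65 (SE 0.30, 95% confidence interval -1.29 to -0.023) with an adjusted p of 0.194 (edgeR quasi-likelihood test, 998 miRNAs). The unadjusted p was 0.0431 in that edgeR fit. In that comparison edgeR called 7.41% of all miRNAs. Leaving out each of the 6 libraries of that comparison in turn gave -0.85 to -0.46 (edgeR adjusted p 0.136 to 0.470). The value was -0.46 (SE 0.30) without mutant library 1, which had the lowest mutant level. That library held 398000 CPM of the pluripotency miRNAs, against 236000 and 231000 in mutant libraries 2 and 3. The K562 KO value was a rise and the hESC mutant value a fall that missed the threshold. No test of the difference between the lines was made because the lines were scaled separately.

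The iUSB1 lines were at similar or lower levels. Without doxycycline the libraries stood at 3.26, 4.08 and 4.33 TMM-scaled CPM, overlapping WT, and differed from WT by a log2 value of -0.56 (SE 0.30, edgeR adjusted p = 0.341), where 4.31% of miRNAs were called. With doxycycline they stood at 2.04, 3.80 and 2.78, all below the lowest WT library. That gave a log2 difference from WT of -1.01 (SE 0.31, 95% confidence interval -1.65 to -0.36), or 0.498-fold, with an edgeR adjusted p of 0.0531, which misses the threshold of 0.05. edgeR called 8.22% of miRNAs in this comparison, and 15.3% had libraries as cleanly lower. The call depended on the tool and the scaling, since DESeq2 gave -1.02 with an adjusted p of 0.0182.

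Induction of USB1 itself and PAPD5 knockdown made no detected difference to miR-584-5p. With against without doxycycline the log2 difference was -0.44 (SE 0.31, 95% confidence interval -1.09 to 0.21, edgeR adjusted p = 0.994). The shPAPD5 libraries stood at 3.66, 3.97 and 5.58 TMM-scaled CPM, overlapping both the mutant and WT. They differed from the mutant by 0.27 on the log2 scale (SE 0.30, 95% confidence interval -0.37 to 0.90, edgeR adjusted p = 0.797) and from WT by -0.39 (SE 0.30, edgeR adjusted p = 0.650). The uninduced line differed from the mutant by 0.091 (SE 0.30, 95% confidence interval -0.54 to 0.73, edgeR adjusted p = 0.933). These 4 comparisons had 0 edgeR calls among 998 miRNAs (0%), with 45, 116, 130 and 89 at an unadjusted p under 0.05, and DESeq2 called 1, 8, 26 and 2. The lowest bound of their intervals was -1.09.

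**Figure D3:**
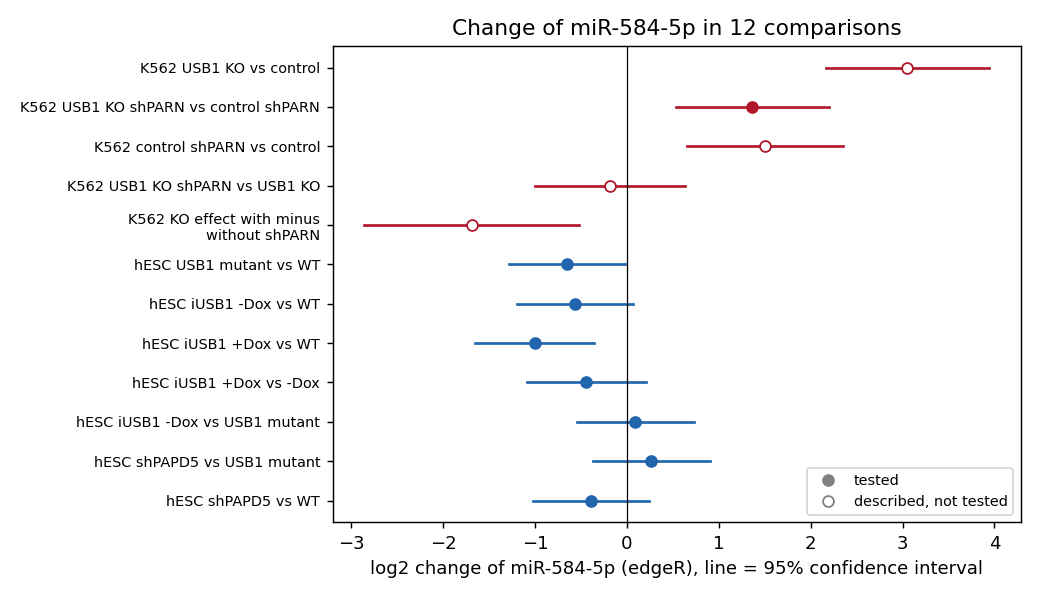
Log2 difference of miR-584-5p in the 12 comparisons (points), with 95% confidence intervals from the edgeR fit (lines), K562 in red and hESC in blue; filled points were tested and open points are described only. The K562 KO values lie at 3.05 without and 1.36 with shPARN, and the 7 hESC values lie between -1.01 and 0.27.

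The other arm of the hairpin was rarely counted. miR-584-3p was listed in 4 of the 9 tables, at 10, 6 and 4 counts in the KO libraries and 1, 3 and 2 in control shPARN. It had 1, 2 and 0 counts in WT hESCs, and 1, 0 and 0 in +Dox. The 3p arm was 1.06% of the arm counts in the KO (20 against 1874 of the 5p arm, exact 95% binomial interval 0.646% to 1.63%) and 0.663% in control shPARN (0.244% to 1.44%). These intervals pool the reads of 3 libraries and cover counting error only, so they give no test between the groups. The 3p arm was not analysed in the control and KO shPARN tables, which do not list it. The arm ratio, with 0.5 added to each count, could be compared only between +Dox and WT. There the mean log2 ratios of 5.94 and 6.18 differed by -0.25 (exact permutation p = 0.7, two-sided, where 0.1 is the smallest possible). With 3p counts of 0 to 2, this ratio depends on the added value, and 1 added to each count gave -0.48. The test cannot show whether arm use differed.

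The 5 miRNAs whose level followed miR-584-5p most closely over the 12 K562 libraries were picked from 420 candidates by Pearson correlation of log2 CPM, as a description. miR-3144-3p had an r of 0.883 (Spearman 0.888), miR-9-3p 0.855 (0.804), miR-652-5p 0.815 (0.769), miR-551a 0.811 (0.755) and miR-652-3p 0.801 (0.846). The libraries share the scaling and the 4 groups, so a shared step between groups raises every one of these values. miR-3144-3p had means of 17.0, 33.0, 26.3 and 42.3 TMM-scaled CPM in control, KO, control shPARN and KO shPARN. It tracked the split of the last group, at 25.0, 36.0 and 65.9 in the KO shPARN libraries, the same order as miR-584-5p. Both arms of miR-652 were in the set, with the 3p arm at means of 262, 449, 231 and 405. Over the 15 hESC libraries the correlation was 0.152 for miR-9-3p, -0.389 for miR-652-5p, -0.486 for miR-551a and -0.623 for miR-652-3p. miR-3144-3p has no value there, as it was not among the miRNAs tested in hESCs.
hsa-miR-3144-3p: aUAUACCUguucggucucuuua
hsa-miR-652-5p: cAACCCUAggagagggugccauuca
hsa-miR-652-3p: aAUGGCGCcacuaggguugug
hsa-miR-551a: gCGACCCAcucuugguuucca

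These sequences, with seeds in capitals, are shown because the rule that picked them used levels only. None has the seed of miR-584-5p. The most opposite pattern was that of miR-183-5p, with an r of -0.923 (Spearman -0.916) and means of 3300, 1584, 2434 and 1462 TMM-scaled CPM in control, KO, control shPARN and KO shPARN.

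**Figure D4:**
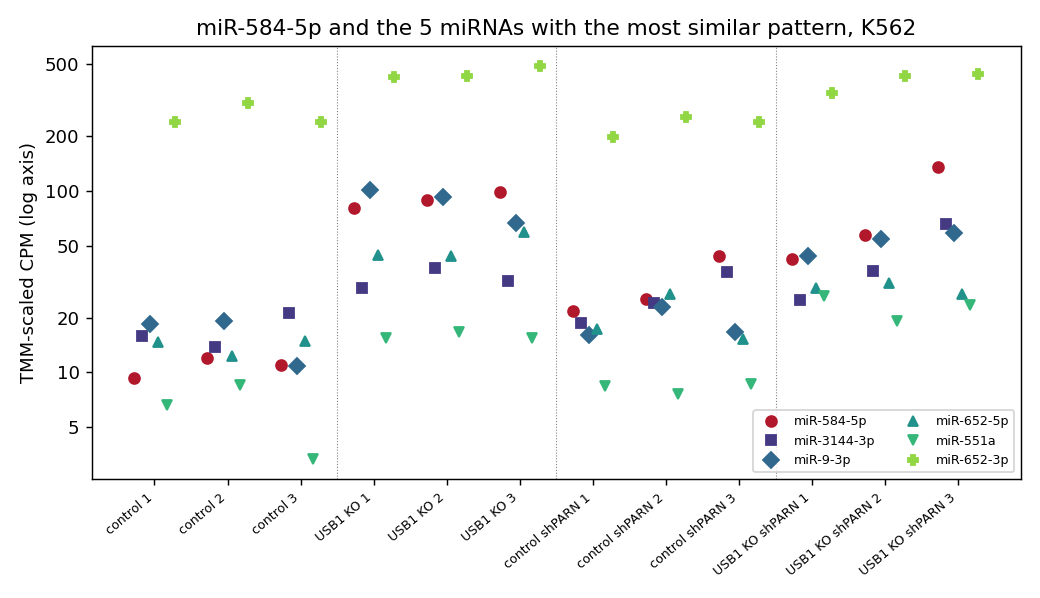
TMM-scaled CPM (log axis) of miR-584-5p and the 5 miRNAs most correlated with it in each of the 12 K562 libraries, with points shifted sideways by miRNA and dotted lines between groups. miR-584-5p (red) goes from 9.28 to 11.9 in control to 80.2 to 98.5 in KO, a wider step than those of miR-3144-3p (means 17.0 and 33.0) and miR-652-3p (262 and 449).

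Neighbouring miRNAs on chromosome 5 were read for comparison. Of 6 listed miRNAs from hairpins within 2 Mb, 5 were tested, from 366.6 to 670.5 kb away: miR-143-3p, both arms of miR-145, and both arms of miR-378a. In KO against control edgeR called 0 of the 5, against 5.11% of all miRNAs, with a median log2 difference of 0.40, against -0.020 over all miRNAs. The 5 ranged from -0.28 to 0.84, the highest being miR-145-5p at means of 93.6 ± 22.8 and 167 ± 8.45 TMM-scaled CPM (edgeR adjusted p = 0.0677). Under shPARN 1 of the 5 rose, miR-145-3p, by 1.31 (SE 0.23, edgeR adjusted p = 0.00340), where 4.99% of all were called higher. miR-143-3p, known as a smooth muscle and fibroblast miRNA, had the largest value there, 4.17 (SE 1.39, edgeR adjusted p = 0.0986), with a KO shPARN mean of 5026 ± 7530 (SD, n = 3). Of the 24 tested miRNAs of chromosome 5 with no copy elsewhere, edgeR called 0 in KO against control, against 5.11% of all miRNAs. Their median log2 difference was -0.022. Under shPARN their median was 0.40, against 0.024 over all miRNAs, and 1 of the 24 was called higher, against 4.99% of all. Of all 31 tested miRNAs with a hairpin on chromosome 5, copies elsewhere included, 3 rose in KO against control, where 1.93% of all miRNAs were called higher. They were miR-9-3p, miR-9-5p (2.06) and miR-218-5p (0.73), each of which also has a hairpin on another chromosome.

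Blood miRNAs were read beside miR-584-5p. The 5 that the study followed were miR-223-3p, miR-199a-3p, miR-142-5p and the 5p arms of miR-125a and miR-125b, and edgeR called 0 of them in K562 KO against control, where it called 5.11% of all miRNAs. Their log2 differences ran from -0.64 to 0.42 with a median of -0.14. The study followed these miRNAs because they were lower in its USB1 mutant cells, so their direction in the hESC mutant is not independent evidence. Under shPARN 1 of the 5 fell, miR-223-3p, a myeloid miRNA, by 1.02 on the log2 scale (SE 0.21, edgeR adjusted p = 0.00967), where 4.2% of all were called lower. In hESC mutant against WT, 2 of the 4 tested fell, miR-125b-5p by 1.08 (edgeR adjusted p = 0.00727) and miR-199a-3p by 1.08 (edgeR adjusted p = 0.0111), where 4.51% of all were called lower. miR-199a-3p is also 1 of the fibroblast markers, and the paper describes hESC culture both on Matrigel and on mouse fibroblast feeders. The fibroblast markers summed to 24100 to 25000 CPM in WT and 21100 to 23000 in the mutant, almost all of it miR-21-5p. The part of feeder cells in these falls was not tested. In a wider list of 17 blood lineage miRNAs, 1 of 16 tested rose in K562 KO against control. It was miR-451a, an erythroid miRNA, with a log2 difference of 0.70 (SE 0.18, edgeR adjusted p = 0.0428), and 1.93% of all miRNAs were called higher there.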

How the data were processed

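Small RNA reads of 27 libraries (9 groups of 3) were trimmed by the authors with cutadapt 2.5, aligned with Bowtie2 2.2.9 to human miRBase entries without seed mismatch, and counted with SAMtools 1.3.1. The authors deposited unnormalised counts for each mature miRNA, and each table lists a miRNA only if its first library has a count. Libraries were compared within K562 (881 miRNAs tested of 1935 listed) and within hESCs (998 of 2067). Only miRNAs listed in all tables of a line entered, 1080 in K562 and 1251 in hESCs, so ranks and shares leave out the others. Then came edgeR's filterByExpr (minimum count 10), TMM scaling and a fit over all groups of a line, with edgeR 4.0.16 in R 4.3.3. edgeR's quasi-likelihood test with Benjamini-Hochberg adjustment used a threshold of 0.05. The fit was tested on simulated data for KO shPARN against control shPARN and for the hESC mutant against WT. Of true log2 changes of 1 in size it recovered 45.4% in the first and 55.1% in the second. Of changes of 2 in size it recovered 80.2% and 86.9%, and 4.72% and 3.45% of the calls were false. Alternatives were DESeq2 1.42.0, other scalings, other filters, a replicate block and leaving out each library. Levels set across lines use library totals. Named miRNAs are miR-584-5p, its other arm, chromosome 5 neighbours, the 5 most correlated and 5 largest rises (mean log2 CPM of at least 3), and lists of blood and marker miRNAs. The miRNA and lists were chosen with earlier results of these data known. The deviations of same-numbered libraries correlated positively at all 3 numbers only in KO shPARN against control shPARN (correlations 0.164 to 0.344). Single values were as high elsewhere, as in -Dox against the mutant (-0.033 to 0.348). The pairing in KO shPARN against control shPARN comes from the data, not from the labels. The K562 control columns carry names that match no control title and that are also the titles of the WT hESC samples. They were taken as controls from the count table that the labels name for them, without a replicate number.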

Additional observations from a re-analysis of the deposited data

How the results depend on the processing

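The K562 KO against control value stayed between 2.96 and 3.13 without 1 library and between 3.0 and 3.15 under other settings, and control shPARN against control between 1.13 and 1.70 and between 1.25 and 1.53. For KO shPARN against control shPARN (log2 1.36, edgeR adjusted p = 0.0434), the call was lost with RLE size factors (1.33, adjusted p = 0.0503), library totals (1.47, 0.0591), no filter (1.35, 0.0663), absent entries set to 0 (1.36, 0.0518) and only the groups compared (1.34, 0.165), by edgeR throughout. Without 1 library it ran from 0.68 to 1.73 (edgeR adjusted p 0.0279 to 0.192). With the replicate block the value was 1.26 (edgeR adjusted p = 0.0115), and 1.23 (0.0125) with the block in a fit of only those groups, a setting chosen after seeing the data. For KO shPARN against KO the range without 1 library was -0.87 to 0.067, reversed without KO shPARN library 1. For the difference of the KO effects it was -2.39 to -1.33. In hESCs, +Dox against WT passed the threshold by DESeq2 (-1.02, adjusted p = 0.0182), and by edgeR with RLE size factors (-1.01, 0.0469), library totals (-0.997, 0.0495), absent entries set to 0 (-1.01, 0.0492) and the replicate block (-1.04, 0.0417). Without 1 library it ran from -1.27 to -0.80 (edgeR adjusted p 0.0413 to 0.191). No block could be fitted for contrasts with the K562 controls, whose columns carry no replicate number, and it changed no other call. Without 1 library -Dox against the mutant ran from -0.098 to 0.30, reversed without mutant library 1, and the arm ratio from -0.97 to 0.37, reversed to 0.36 without WT library 3 and to 0.37 without +Dox library 1. The cause of these changes was not tested. A filter of 10 CPM removed miR-584-5p in hESCs, so it gave no value there. Counts of calls moved by over 1.5 times: 45 became 16 to 34 without 1 library for KO against control, and 8 with both control libraries that held pluripotency miRNAs left out, a choice made after seeing the data. KO shPARN against control shPARN gave 81 calls, 129 by DESeq2, 50 with only the groups compared and 36 to 92 without 1 library. Control shPARN against control gave 13 calls, 0 to 36 under other settings and 1 to 25 without 1 library. KO shPARN against KO gave 130, 51 with only the groups compared and 38 to 139 without 1 library. The difference of effects gave 16, 0 to 37 and 0 to 27. The hESC mutant gave 74 calls, 0 with only the groups compared and 38 to 87 without 1 library. -Dox against WT gave 43, 8 to 63 and 13 to 37, and +Dox against WT 82, with 25 to 61 without 1 library. shPAPD5 against WT gave 0, 0 to 26 and 0 to 9. At 37 to 149 counts per hESC library, counting error alone limits what hESC differences can show.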
